A study of Mus musculus with 16 samples.

Results

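Tight junction genes and simple keratins are the subject here: Tacstd1 (the older symbol of Epcam), Ocln, Cldn3, Cldn4, Cldn6, Cldn7, Tjp1, Tjp3, Krt8 and Krt18. They were chosen by name, 10 genes of the 27128 in each deposited table, and all 10 were found. The study profiled cultured mouse male germline stem cells, grown from germ cells of donors at postnatal day 5.5 that carried a Pou5f1-EGFP transgene (B6;CBA-Tg(Pou5f1-EGFP)2Mnn/J mice) and had been sorted as Oct4-positive and KIT-negative. Every group is one RNA-seq library, so differences cannot be set against replicate spread and are given without p-values. GDNF, bFGF and EGF were in the medium of all cultures.

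The 12 libraries form 4 experiments. In the feeder-removal series, cells on a mouse embryonic fibroblast (MEF) feeder layer (day 0) were compared with cells 4 and 9 days after transfer to Matrigel, a basement membrane extract. The density experiment had a culture on Matrigel at 0.1 µg/cm2, labelled EL, and one at 10 µg/cm2, labelled ML; the series text lists epithelial-like and mesenchymal-like cells, and these names are used below. In the sorted series, cells grown at 10 µg/cm2 were separated into fractions with low, mid and high signal of the GFP reporter. The inhibitor series was grown on MEF feeders and treated for 48 hours with the solvent DMSO alone or with UNC0638, an inhibitor of the histone methyltransferases G9a and GLP, at 0.5, 1 or 2 µM. The 4 ATAC-seq libraries of the 2 Matrigel densities were not analysed here.

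Tight junctions seal the space between neighbouring epithelial cells. Claudins and occludin are the membrane proteins of the seal, and the ZO scaffolds Tjp1 and Tjp3 tie them to actin inside the cell. Keratin 8 and keratin 18 are the partner filament proteins of simple, single-layered epithelia and are unstable without each other. EpCAM is an adhesion molecule of epithelial membranes that also marks undifferentiated spermatogonia, and claudin-7 is one of its binding partners. In the testis, tight junctions are best known from the Sertoli cell barrier, whose main claudin is Cldn11.

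The stretches upstream of the genes' starts are shown as description, and their part in any difference between libraries was not tested. An E-box, the letters CAGGTG, or CACCTG on the other strand, is the kind of site bound by the Snail and Zeb repressors of epithelial genes. In RefSeq promoters of GRCm38.p6, all 10 genes matched, with 13 start sites between them. An E-box lay within the 250 bases upstream of 9 of the 13 starts, while 17.2% of all 32851 promoter windows of that length held one. Counted by gene it was 8 of the 10, some with several starts, and no share by gene was computed for all genes. Cldn3 and Tjp1 had none. The GC box GGGCGG, or CCGCCC, was in 8 of the 13 windows, against 32.7% of all, and the TATA box TATAAA, or TTTATA, in 0 of 13, against 12.4%. These are matches of letters and not shown to be sites of binding. The windows of Tacstd1, Krt8 and Krt18, each 5′ to 3′ on the strand of its gene and ending at the base before the start, are given with the E-boxes in capitals.
Tacstd1 (chr17:87635729-87635978, plus strand): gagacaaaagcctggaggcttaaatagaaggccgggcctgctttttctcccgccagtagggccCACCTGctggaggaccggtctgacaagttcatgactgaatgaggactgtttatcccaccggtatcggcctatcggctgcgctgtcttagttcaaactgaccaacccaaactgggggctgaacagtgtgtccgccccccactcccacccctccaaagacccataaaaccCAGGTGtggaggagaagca
Krt8 (chr15:102004343-102004592, minus strand): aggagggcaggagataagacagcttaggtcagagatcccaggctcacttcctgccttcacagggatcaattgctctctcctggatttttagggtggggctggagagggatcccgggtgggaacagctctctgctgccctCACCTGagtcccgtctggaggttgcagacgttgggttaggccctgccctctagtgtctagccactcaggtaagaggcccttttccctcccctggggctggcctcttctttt
Krt18 (chr15:102027966-102028215, plus strand): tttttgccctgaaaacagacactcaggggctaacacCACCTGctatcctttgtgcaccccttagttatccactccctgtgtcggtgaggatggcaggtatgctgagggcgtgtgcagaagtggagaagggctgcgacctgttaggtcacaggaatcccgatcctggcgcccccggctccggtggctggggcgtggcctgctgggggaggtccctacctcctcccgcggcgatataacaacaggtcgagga
The E-boxes of Tacstd1 begin 187 and 19 bases before the start, that of Krt8 111 bases before it and that of Krt18 214 bases before it. Krt8 and Krt18 lie next to each other on chromosome 15, with 23873 bases and no protein-coding gene between them. Cldn4 and Cldn3 are neighbours in the same way on chromosome 5, 39279 bases apart.

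Library totals ranged from 4335185 to 12019651 expected counts. Germ cell identity was carried by all libraries: the 16 germ cell markers, among them Ddx4 and Dazl, had counts throughout, with a summed level between 3956 and 6351 CPM (counts relative to the library total, scaled by TMM). The summed level of 20 fibroblast markers ranged from 115 to 5702 CPM, and its highest values were in the mesenchymal-like (5702) and DMSO (3034) libraries. Myeloid markers summed to 1913 CPM in GFP-low, 1709 in GFP-mid and 223 in GFP-high cells and to between 10.4 and 47.1 CPM elsewhere. Of the Sertoli cell markers other than Krt18, the sum lay between 10.4 and 84.2 CPM, with Gja1 (up to 40.8 CPM), Clu (up to 33.4) and Sox9 (up to 22.7) the highest. Wt1 reached 8.17 CPM and Gata4 5.01 CPM, while Fshr had 0 counts in every library and Amh was at no more than 0.23 CPM. In bulk RNA, fewer cells of a type and less RNA per cell cannot be told apart.

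The 10 genes covered a wide range of levels per length. On the deposited TPM, a scale corrected for gene length, Tacstd1 was the highest of the 10 in 12 of 12 libraries, between 159 and 310 TPM, and made up 63.3% to 82.3% of their summed TPM. Ocln (8.97 to 69.5 TPM), Tjp1 (15.4 to 36.1) and Krt18 (12.1 to 31.3) held ranks 2 to 4. Krt8 was lower, at 0.46 to 8.99 TPM, and so was Cldn3, at 2.39 to 7.28 TPM. Cldn4, Cldn6, Cldn7 and Tjp3 did not exceed 4.88 TPM in any library. The ranking among these low genes changed from library to library and rests on few reads. Cldn7 had at most 3 counts in 7 of the 12 libraries, Cldn6 in 5 and Cldn4 in 2. With a mean of 0.839 CPM, Cldn7 was the one gene of the 10 under the filter of a mean of 1 CPM, so counts of changed genes below are out of 9.

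**Figure D1:**
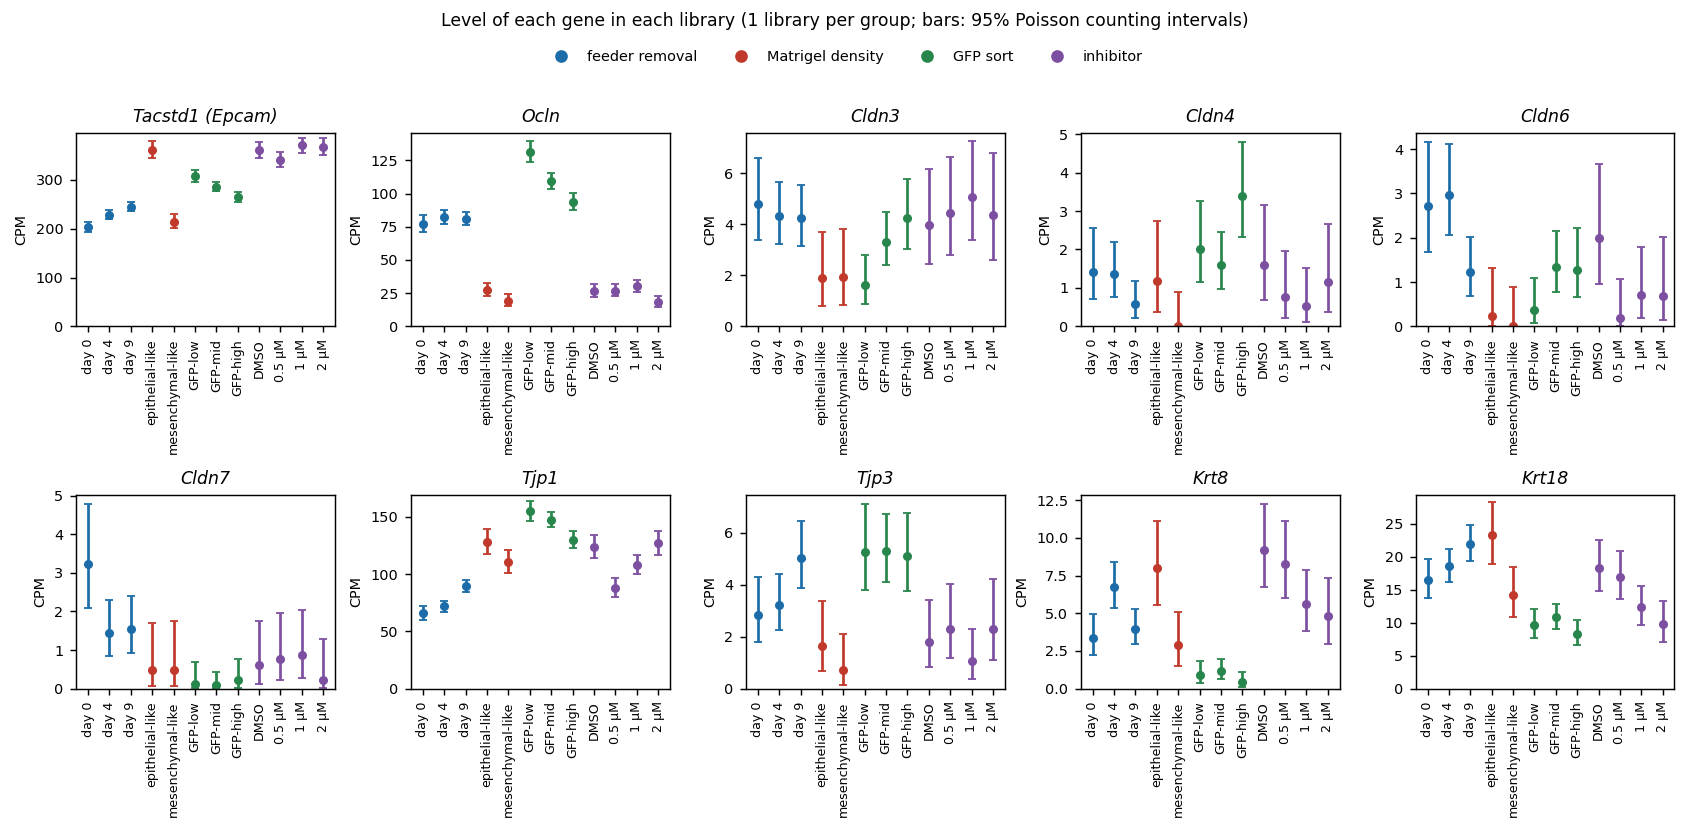
CPM of each of the 10 genes (vertical axis, linear from 0) in each of the 12 libraries, coloured by experiment; points are single libraries and bars are 95% Poisson counting intervals. Ocln has 2 tiers, at 77.0 CPM or more in the feeder-removal and sorted libraries and at 30.02 CPM or less in the density and inhibitor libraries, and Krt8 is lowest in the 3 sorted fractions.

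Across libraries the genes did not follow one pattern. Ocln split by experiment: it was at 77.0, 82.1 and 81.1 CPM at days 0, 4 and 9 and, in order of rising GFP, at 131, 109 and 93.9 CPM in the sorted fractions. It was at 27.2 CPM in the epithelial-like and 19.3 CPM in the mesenchymal-like library, and at 26.7, 27.0, 30.02 and 18.6 CPM with DMSO and 0.5, 1 and 2 µM UNC0638. The lowest of the first 6 libraries was thus above the highest of the other 6. The first 6 also had the larger totals, 7661976 expected counts or more, against 5777912 or fewer in the other 6. Tjp3 (ZO-3) had a similar division, at 2.85 to 5.31 CPM in the first 6 and 0.724 to 2.31 CPM in the other 6. Tacstd1 was lowest at day 0, at 203 CPM, and highest with 1 µM UNC0638, at 371 CPM. Its 3 feeder-removal libraries (203, 229 and 245 CPM) and the mesenchymal-like library (215 CPM) were below the remaining 8, which ranged from 265 to 371 CPM. Tjp1 (ZO-1) was also lowest in the feeder-removal series, at 65.7, 71.7 and 89.7 CPM, next to 88.0 CPM with 0.5 µM UNC0638, and it reached 155 CPM in GFP-low cells. No group recurs in a second experiment, so effects of experiment, of batch and of sequencing depth cannot be told apart.

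The density experiment bears on how an epithelial-like culture differs from a mesenchymal-like one. Expected counts of Tacstd1 were 1542 in the epithelial-like and 890 in the mesenchymal-like library, which is 362 and 215 CPM (log2 ratio of CPM + 1 of -0.75, 95% counting interval -0.87 to -0.63). Krt8 had 34 and 12 counts, 7.98 and 2.90 CPM (-1.20, -2.55 to -0.48), and its partner Krt18 had 99 and 59 counts, 23.2 and 14.2 CPM (-0.67, -1.20 to -0.23). Among the seal proteins, Ocln had 116 and 80 counts (-0.47, -0.92 to -0.07). Cldn4 had 5 and 0 counts, with an interval that reached up to 0.17, so a difference was not detectable at this depth. Cldn3 had 8 counts in both libraries (0.03, -1.57 to 1.65), Cldn7 had 2 in both, and Cldn6 had 1 and 0. Of the scaffolds, Tjp1 was at 128 and 111 CPM (-0.21, -0.40 to -0.03), and Tjp3 had 7 and 3 counts (-0.62, -3.76 to 0.95).

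On the scale of CPM + 1, on which calls were made, 2 of the 9 genes had ratios past 2-fold lower in the mesenchymal-like library, Krt8 and Cldn4, and none was 2-fold higher. The interval of Cldn4 held no change, and Krt8 was the one of the pair whose interval lay below it. Of all 14301 genes that passed the filter, 1.78% were 2-fold lower, 10.7% were 2-fold higher and 12.5% changed 2-fold in either direction. The intervals of Tacstd1, Ocln, Tjp1, Krt8 and Krt18 lay below no change, 5 of 9 where 22.0% of all genes did, and 8 of the 9 ratios were negative, where 54.4% of all were. Among these 8, the intervals of Cldn4 and Tjp3 held no change and Cldn6 had 1 and 0 counts, so these 3 have no measurable direction. The median of the 9 ratios was -0.62, beside -0.06 for all genes. It is the ratio of Tjp3, whose interval held no change. Fibroblast markers moved in the same comparison, from 298 to 5702 CPM in sum, with 19 of the 19 that passed the filter higher, and germ cell markers summed to 5046 and 3956 CPM with a median ratio of -0.34. With the median germ cell marker set to no change, Tacstd1 stood at -0.41 (-0.53 to -0.29) and Krt8 at -0.86 (-2.20 to -0.13). The intervals of Ocln (-0.13, -0.58 to 0.27) and Krt18 (-0.32, -0.85 to 0.12) then held no change. Tjp1 changed sign, to 0.13 (-0.05 to 0.31), no gene of the 9 was 2-fold lower, and the median of all genes was 0.29. The part of the fibroblast share in these differences was not tested.

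Of 38 further tight junction and polarity genes, 24 passed the filter, and their median ratio was 0.08, with 14 higher and 10 lower. Of the 24, 3 were at least 2-fold higher and none was 2-fold lower, beside the 10.7% and 1.78% of all genes, so the share that was higher was near the background. Amotl1, a junction-associated member of the angiomotin family, rose from 2.82 to 60.4 CPM (4.01, 3.59 to 5.39), Jam2, an adhesion molecule also made by endothelial and stromal cells, from 1 count to 44 (interval 2.95 to 10.8), and the polarity protein Pard6g from 11.5 to 32.8 CPM (1.44, 1.03 to 2.02). F11r (JAM-A) was at 126 and 134 CPM and cingulin, Cgn, at 30.5 and 35.7 CPM. Marveld2 (tricellulin), the relative of occludin at three-cell corners, was at 19.0 and 18.4 CPM. Among desmosome genes and keratin linkers, 8 of 10 were higher, where 54.4% of all genes were lower. Their median was 0.61, beside -0.06 for all genes. The intervals of 5 of the 10 lay above no change and that of 1 lay below it. Past 2-fold higher were 2 of the 10, where 10.7% of all genes were. Plec1 (plectin), which links intermediate filaments including vimentin to other structures, rose from 66.4 to 226 CPM (1.75, 1.57 to 1.96). Desmoplakin, Dsp, which anchors keratin at desmosomes, rose from 7 to 22 counts (1.26, 0.42 to 3.16).

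**Figure D2:**
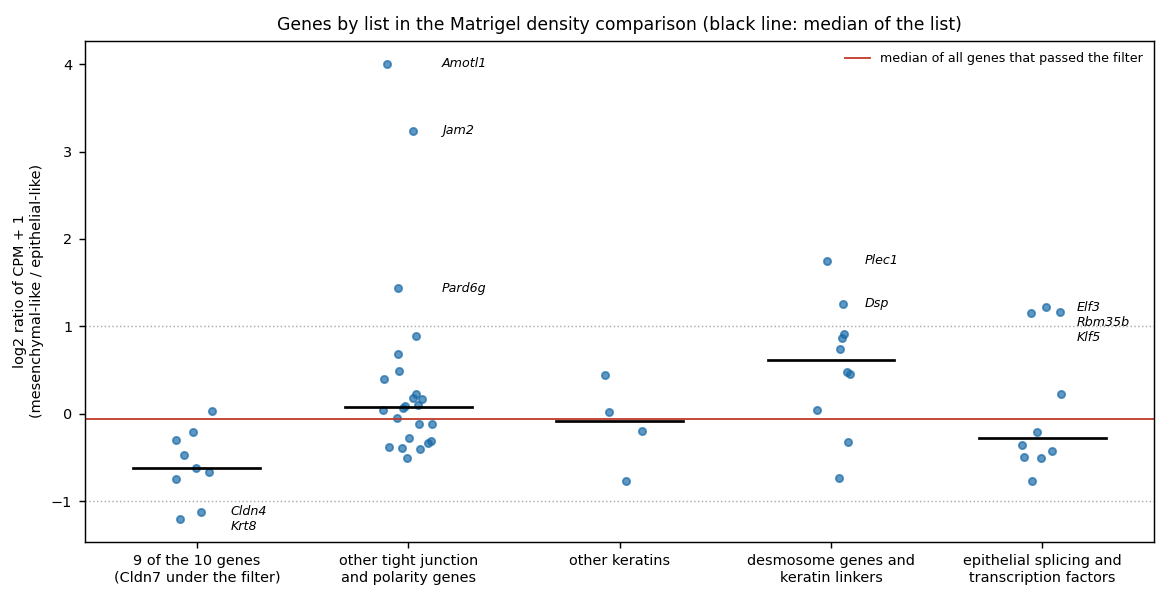
Log2 ratio of CPM + 1, mesenchymal-like over epithelial-like (vertical axis), for every gene that passed the filter in 5 gene lists; points are genes, black lines list medians, the red line the median of all genes, and genes past 2-fold are named. The 9 tight junction and keratin genes have a median of -0.62, which is the ratio of Tjp3, and the desmosome genes and keratin linkers one of 0.61.

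Few other keratins were seen. Of 17 further keratin genes, 4 passed the filter: Krt10, Krt19, Krt23 and the row matched by transcript to Krt12. Of the keratins of stratified epithelia, Krt10 was at 3.14 to 7.13 CPM, Krt1, Krt15 and Krt17 did not exceed 1.05 CPM, and Krt4, Krt5, Krt13, Krt14 and Krt16 had 0 counts in all 12 libraries. Krt19, another keratin of simple epithelia, was at 3.99 CPM in the epithelial-like and 1.93 CPM in the mesenchymal-like library, from 17 and 8 counts, with an interval that held no change (-2.47 to 0.24). The simple keratins Krt7 (3 and 9 counts) and Krt20 (0 and 6 counts), both under the filter, had more counts in the mesenchymal-like library. Krt19 was at most 2.70 CPM in the other 10.

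**Figure D3:**
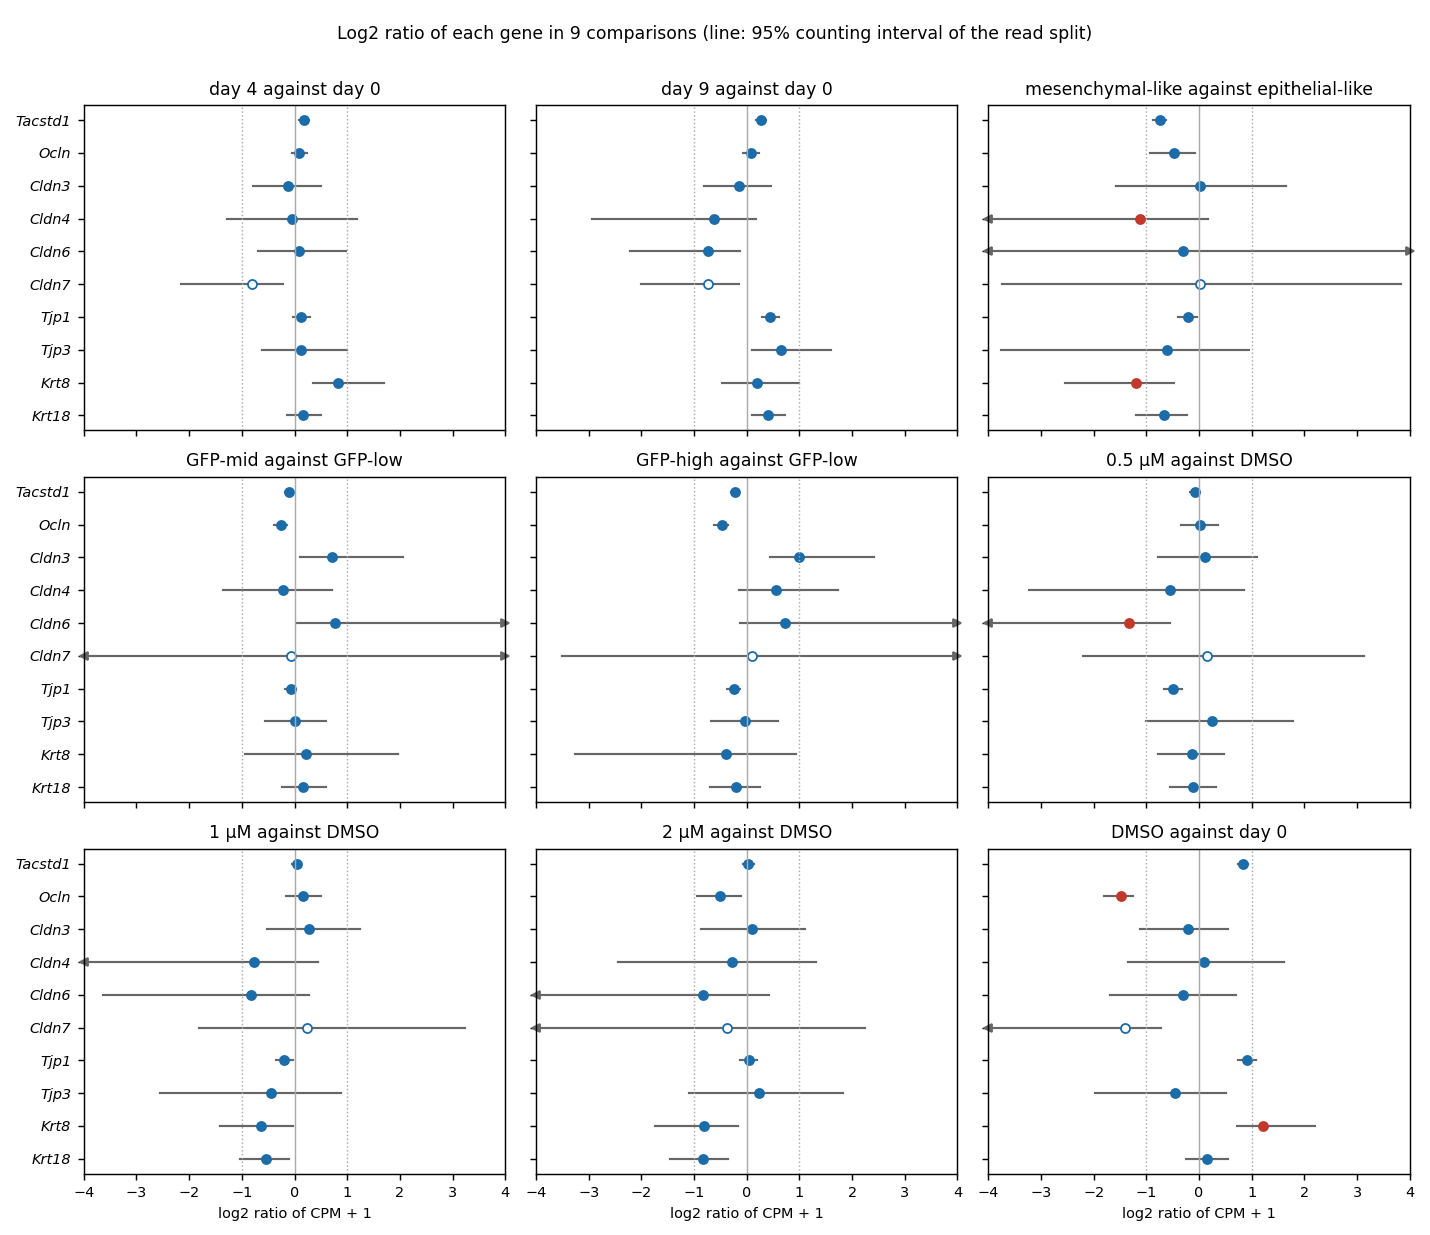
Log2 ratio of CPM + 1 (horizontal axis) for the 10 genes in 9 comparisons; points are ratios of 1 library to another, lines are 95% counting intervals with arrows where they run past the axis, dotted lines mark 2-fold, red points are past 2-fold and open points are Cldn7, which was under the filter. In the mesenchymal-like comparison 8 of the 9 other genes lie left of 0, while the day 4 and day 9 points lie mostly to the right.

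The sorted series asked how the strength of the Pou5f1 reporter relates to expression. Ocln stepped down with the reporter, from 1047 counts (131 CPM) in GFP-low through 109 CPM in GFP-mid to 93.9 CPM in GFP-high (GFP-high against GFP-low -0.48, -0.61 to -0.35). Its GFP-mid ratio was -0.26 (-0.38 to -0.15), beside a median of -0.15 for germ cell markers, so centring on them makes that step smaller. Tacstd1 was at 309, 286 and 265 CPM (-0.22, -0.30 to -0.14) and Tjp1 at 155, 148 and 130.1 CPM (-0.25, -0.37 to -0.14), in the same order, but centred on germ cell markers their GFP-mid ratios turned to 0.04 and 0.08. Marveld2, the relative of Ocln, was at 86.0, 70.2 and 59.3 CPM. Cldn3 went the other way, with 13, 42 and 40 counts, 1.63, 3.33 and 4.25 CPM. Its ratio of 1.00 between GFP-high and GFP-low (0.45 to 2.41) was just short of 2-fold, and it passed 2-fold on the deposited TPM. Cldn6 had 3, 17 and 12 counts and Cldn4 16, 20 and 32, whose GFP-high interval reached from -0.15 to 1.72. Tjp3 was level, at 5.27, 5.31 and 5.10 CPM.

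On the scale of CPM + 1, none of the 9 genes changed 2-fold between GFP-high and GFP-low, where 9.54% of all genes did, nor between GFP-mid and GFP-low, where 4.07% did. Without the pseudocount, the CPM ratio of GFP-high to GFP-low was 2.60 for Cldn3 (1.36 to 5.31) and 3.39 for Cldn6 (0.914 to 18.7). That of GFP-mid to GFP-low was 2.04 for Cldn3 (1.07 to 4.14) and 3.58 for Cldn6 (1.04 to 19.1), from 3 counts of Cldn6 in GFP-low cells. Myeloid markers followed Ocln in their order, with all 12 that passed the filter at least 2-fold lower in GFP-high than in GFP-low cells. The part of those cells in the Ocln difference was not tested. Of the other tight junction and polarity genes, 4 of 24 were 2-fold higher in GFP-high cells, where 6.94% of all genes were, and none was 2-fold lower. They were Prkci, the atypical protein kinase C of the polarity complex (50.3, 120 and 119 CPM), Pard6b (1.76, 3.25 and 9.98 CPM), Magi1 (14.7, 19.4 and 30.5 CPM) and Amotl1 (6.02, 8.71 and 14.9 CPM).

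Krt8 was low in the sorted fractions, and Krt18 was near its level with 2 µM UNC0638 (9.85 CPM). Krt18 had 77, 137 and 78 counts (9.65, 10.8 and 8.28 CPM) and Krt8 had 7, 15 and 4 counts (0.878, 1.19 and 0.425 CPM). The highest Krt8 value of the 3 was below the lowest of the other 9 libraries, 2.90 CPM in the mesenchymal-like culture, which was grown at the same Matrigel density. Fibroblast markers summed to 115, 160 and 265 CPM in the fractions and Sertoli markers other than Krt18 to 10.4, 11.6 and 11.1 CPM. The next lowest sums of these markers were 273 CPM at day 9 and 19.7 CPM in the epithelial-like culture.

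The feeder-removal series asked what changes once the cells leave the feeder layer. On the scale of CPM + 1, no gene of the 9 changed 2-fold at day 4, where 2.28% of all genes did, or at day 9, where 2.6% did; both comparisons share the day 0 library. Tacstd1 was at 203, 229 and 245 CPM at days 0, 4 and 9, with ratios to day 0 of 0.18 (0.09 to 0.27) and 0.27 (0.18 to 0.36). Tjp1 was at 65.7, 71.7 and 89.7 CPM (0.12, -0.04 to 0.29, and 0.44, 0.29 to 0.60), Krt18 at 16.5, 18.5 and 22.0 CPM (0.16, -0.15 to 0.50, and 0.40, 0.11 to 0.73) and Tjp3 at 2.85, 3.22 and 5.04 CPM (0.65 at day 9, 0.10 to 1.60). These 4 genes were in the same order over the 3 time points.

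Krt8 was highest at day 4, at 3.37, 6.77 and 3.99 CPM from 26, 80 and 49 counts (0.83 at day 4, 0.35 to 1.70; 0.19 at day 9, -0.47 to 0.99). Without the pseudocount its CPM ratio at day 4 was 2.01 (1.28 to 3.26). Of the low claudins, Cldn6 had 21, 35 and 15 counts (0.09 at day 4, -0.70 to 0.98; -0.75 at day 9, -2.22 to -0.13). Cldn7 had 25, 17 and 19 counts and was lower at both times (-0.80, -2.15 to -0.23, and -0.74, -2.01 to -0.15). The intervals of Cldn4, with 11, 16 and 7 counts, held no change at either time. Cldn3 was level, at 4.80, 4.32 and 4.23 CPM, as was Ocln. The summed fibroblast markers were 307, 296 and 273 CPM in these libraries, and the summed Sertoli markers other than Krt18 were 74.3, 76.4 and 80.0 CPM. Beside the 10 genes, 17 of 24 tight junction and polarity genes were higher at day 4 and 14 at day 9, with medians of 0.08 and 0.15 against 0.03 and 0.02 for all genes.

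The inhibitor series asked how the cells respond to UNC0638. The pair of keratins was graded with dose. Krt18 had 92 counts with DMSO and 88, 71 and 43 with 0.5, 1 and 2 µM, which is 18.4, 16.9, 12.4 and 9.85 CPM. Krt8 had 46, 43, 32 and 21 counts, 9.18, 8.28, 5.58 and 4.81 CPM. Both were highest with DMSO and lowest at 2 µM. The ratio of 2 µM to DMSO was -0.84 for Krt18 (-1.46 to -0.36) and -0.81 for Krt8 (-1.75 to -0.16), short of 2-fold. At 1 µM it was -0.53 (-1.04 to -0.11) and -0.63 (-1.42 to -0.04), and at 0.5 µM both intervals held no change. Fibroblast markers summed to 3034, 1003, 422 and 502 CPM in these 4 libraries, Sertoli markers other than Krt18 to 84.2, 73.2, 48.9 and 52.5 CPM, and germ cell markers to 5064, 5516, 5303 and 4790 CPM. The part of these markers in the keratin differences was not tested. The 10 desmosome genes and keratin linkers had a median of 0.25 at 2 µM against DMSO, beside -0.02 for all genes. The intervals of 2 of them lay above no change and that of 1 lay below it. Desmoplakin, with 17, 12, 8 and 3 counts, was the one past 2-fold, and it was lower (-1.38, -4.72 to -0.51). Of all genes, 7.01% changed 2-fold in either direction.

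**Figure D4:**
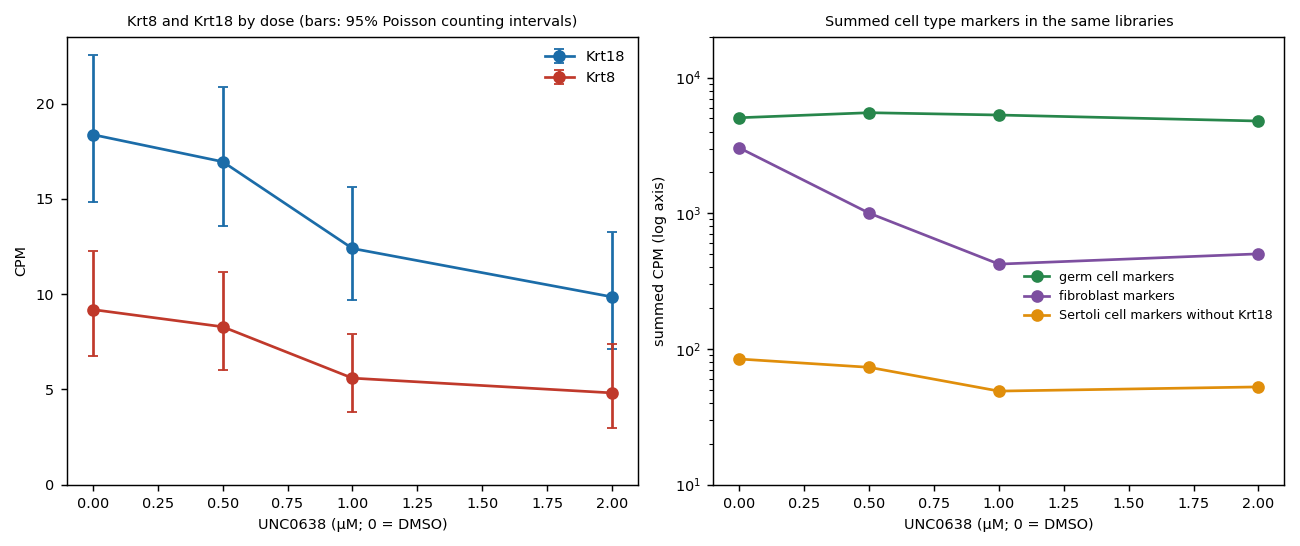
Left, CPM of Krt18 and Krt8 (linear axis from 0) against the UNC0638 concentration, with 95% Poisson counting intervals; right, summed CPM of germ cell, fibroblast and Sertoli markers in the same 4 libraries on a log axis. Krt18 goes from 18.4 to 9.85 CPM and Krt8 from 9.18 to 4.81 CPM, while fibroblast markers go from 3034 to 502 CPM.

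On the TMM scale Tacstd1 was level under the inhibitor, at 361, 341, 371 and 369 CPM (0.03 at 2 µM, -0.07 to 0.13). Germ cell markers had a median of 0.16 at 0.5 µM and -0.12 at 2 µM. Centring on them lowers Tacstd1 at 0.5 µM and raises it at 2 µM. Ocln was at 26.7, 27.0, 30.02 and 18.6 CPM and was lower only at 2 µM (-0.50, -0.94 to -0.12; 81 counts against 134 with DMSO). Tjp1 dipped at 0.5 µM, at 124, 88.0, 108 and 127 CPM (-0.49, -0.67 to -0.32 at 0.5 µM; -0.19, -0.36 to -0.03 at 1 µM; 0.03, -0.13 to 0.20 at 2 µM), so it did not follow the order of the doses. Cldn3 had 20, 23, 29 and 19 counts, with intervals that held no change at each dose. Cldn6 had 10 counts with DMSO and 1, 4 and 3 with inhibitor (-1.33 at 0.5 µM, -8.81 to -0.56), and Cldn4 had 8, 4, 3 and 5. The 3 ratios share the DMSO library, and Cldn6 at 0.5 µM was the one 2-fold call on the scale of CPM + 1 among the 9 genes at any dose. Of all genes, 3.71%, 6.71% and 7.01% changed 2-fold at the 3 doses. The 24 other tight junction and polarity genes had medians of 0.00, 0.12 and -0.01, beside -0.01, 0.00 and -0.02 for all genes.

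DMSO-treated and day 0 cells are both feeder cultures without inhibitor, from different experiments. They also differ in solvent treatment and in fibroblast markers, and the parts of these and of experiment cannot be told apart. For Ocln, Tacstd1 and Tjp1 the difference was larger than in any of the 8 comparisons within an experiment. Ocln had 594 counts at day 0 (77.0 CPM) and 134 with DMSO (26.7 CPM), a ratio of -1.49 (-1.81 to -1.25), and Krt8 was at 3.37 and 9.18 CPM (1.22, 0.72 to 2.20). Tacstd1 (0.83, 0.73 to 0.93) and Tjp1 (0.90, 0.74 to 1.09) were higher with DMSO by less than 2-fold, while Krt18 was at 16.5 and 18.4 CPM (0.15, -0.25 to 0.56). Cldn7 had 25 counts at day 0 and 3 with DMSO, a ratio of CPM of 0.185 (0.0357 to 0.606). Past 2-fold were 2 of the 9, Ocln and Krt8, where 19.4% of all genes were. The fibroblast markers summed to 307 CPM at day 0 and 3034 CPM with DMSO. The 24 other tight junction and polarity genes went both ways, with 15 higher and 9 lower with DMSO (median 0.14, beside 0.01 for all genes). Jam2 (1 and 17 counts) and Pard6g (4.28 and 12.4 CPM) were 2-fold higher, and Mpp5, Prkci and Crb3 were 2-fold lower. Mpp5 (Pals1), a scaffold of the Crumbs polarity complex, was at 140.5 and 52.9 CPM and Prkci at 126 and 51.3 CPM.

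Ratios between 2 genes of the same library do not depend on the scaling of libraries. Krt8 supplied 33.3% of the counts of the keratin pair with DMSO (46 of 138, 95% Clopper-Pearson interval 25.5 to 41.9) and 32.8%, 31.1% and 32.8% with 0.5, 1 and 2 µM UNC0638. The make-up of the pair was thus nearly the same over the 4 libraries, in which the pair went from 138 to 64 counts. In the sorted fractions Krt8 supplied 8.33% (3.42 to 16.4), 9.87% (5.63 to 15.8) and 4.88% (1.34 to 12.02). Those intervals lie below the ones of all 4 libraries of the inhibitor series. Between lay day 0 (16.99%), day 9 (15.4%), the mesenchymal-like library (16.9%), the epithelial-like library (25.6%) and day 4 (26.8%).

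Ocln supplied 54.0%, 53.4% and 47.5% of the summed counts of Ocln and Tjp1 at days 0, 4 and 9, and 45.9% in GFP-low, 42.5% in GFP-mid and 41.9% in GFP-high cells. In the other 6 libraries it supplied 12.8% to 23.5%, and the intervals of the 2 sets did not meet. The same 2 sets differ in sequencing depth. The 4 claudins gave few counts, from 10 in the mesenchymal-like library to 119 at day 4. Cldn3 was the most counted of them in 11 of the 12 libraries. The exception was the GFP-low fraction, where Cldn4 had 16 of 33 counts (48.5%, 30.8 to 66.5) and Cldn3 13. Cldn7 supplied 26.6% of the claudin counts at day 0 (18.0 to 36.7) and between 1.25% and 3.03% in the sorted fractions.

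**Figure D5:**
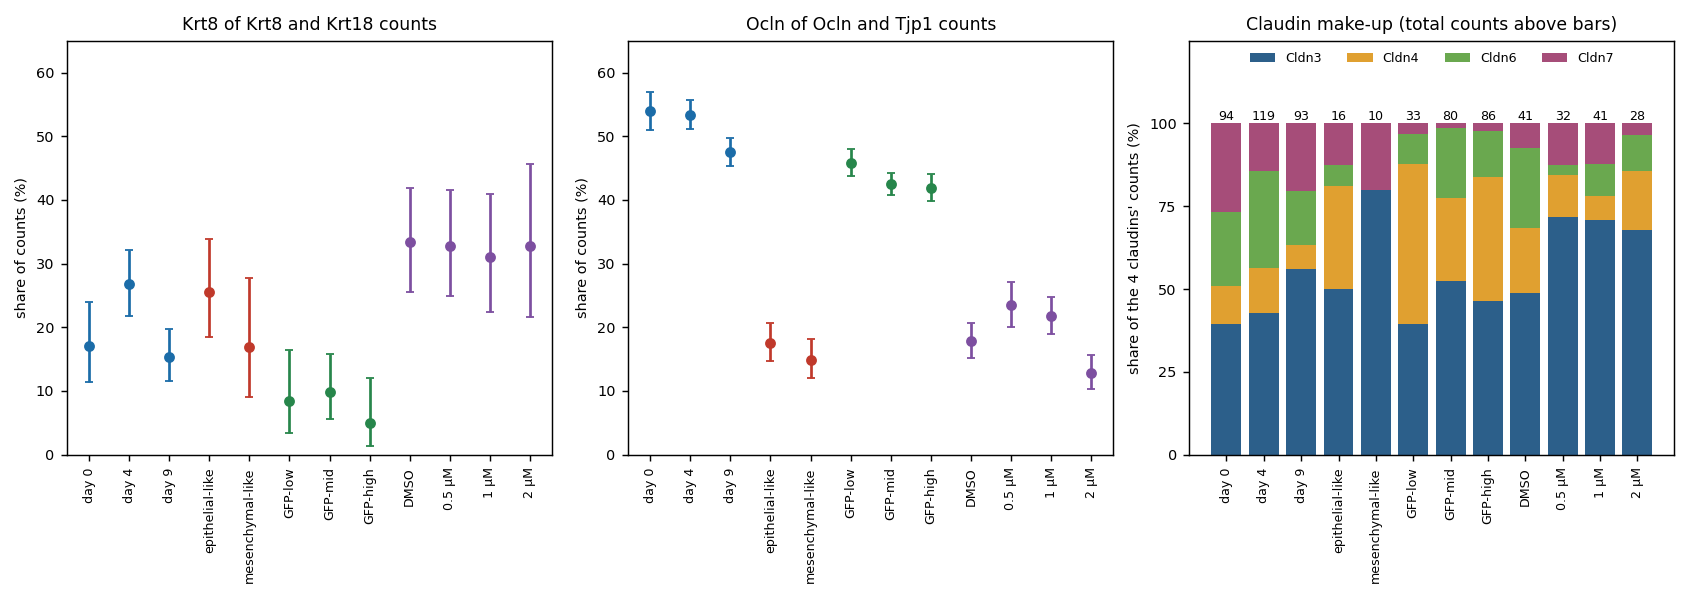
Share of Krt8 in the counts of Krt8 and Krt18 (left) and of Ocln in the counts of Ocln and Tjp1 (middle) in each library, in percent with 95% Clopper-Pearson intervals, and make-up of the 4 claudins' counts (right, stacked to 100% with the total counts above the bars). The Krt8 share is 31.1% to 33.3% in the inhibitor series and 4.88% to 9.87% in the sorted fractions.

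Similarity of pattern over the 12 libraries was described by Pearson's r of log2(CPM + 1), with no test, since libraries of 1 experiment share their source. Among the 36 pairs of the 9 genes, Ocln and Tjp3 were most alike (r = 0.87), then Krt8 and Krt18 (r = 0.75), and Ocln and Krt8 were the least alike (r = -0.66). The neighbours Cldn3 and Cldn4 had an r of 0.10. Of 8327 genes at a mean of 10 CPM or more, those closest to Tacstd1 were Zbtb48 (r = 0.96), Zcchc8 (0.94) and Ddx55 (0.93). For Ocln they were Ate1 (0.97), Acp5 (0.96) and Pik3ap1 (0.95), and for Krt18 they were Skil (0.94), Cwf19l1 (0.89) and Rcl1 (0.87). Those closest to Tjp1 were Zfp408 (0.97), Lmnb1 (0.96) and Mpdz (0.95), of which Mpdz is itself a tight junction scaffold.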

How the data were processed

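Gene tables of 12 RNA-seq libraries were used, 1 per group. Per the file headers, the authors deposited an expected count and a TPM for each gene from RSEM; the submitters' processing notes also name Trim Galore and mm10. The expected counts were deposited without normalization, and the TPM were scaled by the authors for length and library. The aligner and the annotation release are not given in the sources used here. The 120 counts of the 10 genes were all whole. RefSeq names a Krt8 pseudogene, and how reads shared with it were assigned cannot be checked, so Krt8 is uncertain in that respect.

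Counts were rounded and scaled to CPM with TMM factors of edgeR 4.0.16 in R 4.3.3. The filter kept the 14301 genes whose mean reached 1 CPM. A comparison is the log2 ratio of CPM + 1 between 2 libraries, called at 2-fold; the pseudocount understates changes of low genes. No spread between replicates can be estimated. Intervals are 95% Clopper-Pearson (read split, shares; without pseudocount) or Poisson. Amplified reads are not independent molecules, so intervals and the floor of 3 counts (0.238 to 0.724 CPM) cover counting error only. Alternatives were DESeq2 1.42.0 size factors, total counts, deposited TPM, pseudocounts of 0.1 and 5, other filters, centring on germ cell markers and a call that needs the interval. The calls and intervals were tried on simulated Poisson counts, which hold no spread between replicates. Changes were planted only in genes at a mean of 10 CPM or more, so detection of changes in lower genes was not tested.

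The 10 genes, the lists and the rules (all 10 genes are named, with any gene of the lists and the 3 genes most alike in pattern) were chosen with earlier results of these data known. Of the lists' genes, Rhox5 was unmatched, and some are not reported here by name. Summed levels of the pluripotent markers were 167 to 228 CPM, and of the extraembryonic markers, mostly Afp, 72.0 to 217 CPM. RefSeq sequences and positions are of GRCm38.p6, the build also called mm10. Software beside R was scipy 1.17.1, pandas 2.3.3, numpy 2.4.6 and, for plots, matplotlib 3.10.9, under Python 3.11.15.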

Additional observations from a re-analysis of the deposited data

How the results depend on the processing

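No paired analysis was possible because every RNA group has 1 library, and for the same reason no replicate could be left out. The count of the 9 genes past 2-fold depended on settings that act on low levels. With a pseudocount of 0.1 it was 2 at day 9, 4 in the mesenchymal-like comparison, 1 for GFP-mid, 2 for GFP-high, 2 at 1 µM and 1 at 2 µM, where the added genes were Cldn3, Cldn4, Cldn6 and Tjp3. With a pseudocount of 5 it was 0 in the mesenchymal-like comparison, 0 at 0.5 µM and 1 for DMSO against day 0. With a filter at a mean of 10 CPM it was 0, 0 and 1 in the same comparisons. When the call also required the counting interval, 1 gene (Krt8) was left in the mesenchymal-like comparison. Total counts, the deposited TPM and centring on germ cell markers each gave 1 for GFP-high (Cldn3). That centring gave 0 in the mesenchymal-like comparison and 4 for DMSO against day 0 (Tacstd1, Ocln, Tjp1 and Krt8), and it moved the calls over all genes in the mesenchymal-like comparison from 1527 higher and 254 lower to 2338 and 81. The other 63 of 81 alternative counts kept to within 1.5 times. Of 486 alternative values of single genes, 15 moved by more than 0.5 times the width of their counting interval. Of the same 486, 14 changed sign, and none of these 14 was a 2-fold call. The claudins, Tjp3 and Krt8 are limited by depth.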

Other observations

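Genes that control or accompany the epithelial state differed between experiments as well. Rbm35a (Esrp1), a splicing factor of epithelial cells, was at 22.8, 32.8 and 34.8 CPM at days 0, 4 and 9 and between 58.2 and 108 CPM in the other 9 libraries. Grhl2, a transcription factor that activates junction genes, had the opposite order, at 83.4, 94.5 and 86.6 CPM in the feeder-removal series and 27.3 to 53.2 CPM in the other 9. In the density experiment Rbm35a was at 74.6 CPM in the epithelial-like and 58.2 CPM in the mesenchymal-like library, and Grhl2 at 39.2 and 27.3 CPM. In that list of epithelial splicing and transcription factors, 10 genes passed the filter. In the mesenchymal-like library 6 of them were lower and 4 higher, near the 54.4% of all genes that were lower. Their median was -0.28, beside -0.06 for all genes. At least 2-fold higher were 3 of the 10, where 10.7% of all genes were, and none was 2-fold lower, where 1.78% were. Klf5, a transcription factor of epithelia, rose from 24 to 57 counts (log2 ratio 1.15, counting interval 0.58 to 2.04), Rbm35b (Esrp2) from 5 to 16 and Elf3 from 2 to 10. Cldn12, a claudin outside the 10 genes, was at 28.6 to 65.8 on the length-corrected TPM scale, above each of the 4 claudins described in every library. Cldn11, the Sertoli cell claudin, was at 5.96, 4.49 and 2.93 CPM at days 0, 4 and 9 and at 0.878 CPM or less in the sorted fractions.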
